A study of Mus musculus with 8 samples.

Results

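The genes compared were the 10 genes of the mouse that build, load and control MHC class II molecules: *Ciita*, *Cd74*, *H2-Aa*, *H2-Ab1*, *H2-Eb1*, *H2-DMa*, *H2-DMb1*, *H2-DMb2*, *H2-Oa* and *H2-Ob*. They were chosen by name, through the Ensembl identifiers of the deposited table, and make up 10 of its 48709 genes. All 10 had enough counts to be tested. RNA was sequenced from 8 lung adenocarcinomas, 4 of them *K-Ctrl* and 4 *K-Setd2KO*. Both groups arose in *K* mice, a Cre-inducible lung tumor model of mixed B6J/129S4vJae background with p53 left intact, after a lentivirus carrying Cre, Cas9 and a single guide RNA was given through the trachea. The guide targeted GFP in *K-Ctrl* tumors and *Setd2*, which encodes an H3K36 methyltransferase, in *K-Setd2KO* tumors. The study chose the tumors by histology to match in stage and calls the *K-Setd2KO* tumors low grade adenomas. Sorting of tumor cells is described for its other model and not for these tumors, and markers of leukocytes and endothelium gave counts in each sample. The study gives an upper age at tumor initiation for its models, but no age or time after infection for each tumor. The labels did not say whether the tumors came from separate mice, so p-values measure the spread between these tumors.

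MHC class II molecules present peptides taken up from outside the cell to CD4+ T cells. Each is a dimer of an α and a β chain that travels with the invariant chain, whose last fragment is exchanged for a peptide with the help of H2-DM, a step held back by H2-O. Dendritic cells, macrophages and B cells express these genes, and in the lung so do alveolar type 2 cells, the epithelial cells in which lung adenocarcinomas commonly start. Transcription in all of these cells depends on the coactivator CIITA, which is brought to X and Y boxes in the promoters by RFX, CREB and NF-Y proteins. The comparison therefore asked whether the class II genes differed between tumors with and without the *Setd2* guide, and how they stood beside markers of each cell type that could supply them.

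No member passed the test in either direction. The test was edgeR's quasi-likelihood F-test over 14929 genes with Benjamini-Hochberg adjustment and a threshold of 0.05. It called 0 of 10 class II genes lower and 0 of 10 higher, where 7.74% of all genes tested were called lower and 4.97% higher in *K-Setd2KO* tumors. Of the 10, 1 had an unadjusted p under 0.05 (*H2-Ob*). DESeq2 also called 0 of 10, where it called 1867 of 14929 genes lower and 1327 higher. With limma voom 0 of 10 were called, where it called 1062 of 14929 genes lower and 676 higher. Before adjustment they had 2 and 0 members under 0.05. The share of all genes under 0.05 before adjustment was not counted, so these numbers of members have no background beside them. The ranges of the groups overlapped for all 10 members, whereas 20.3% of all genes had ranges that did not overlap. The median log2 fold change of the members was -0.05 (*K-Setd2KO* minus *K-Ctrl*, as in every fold change below), against 0.03 over all genes tested, and 8 of the 10 lay below 0, where 47.3% of all genes did. Of these 8, 5 (*Ciita*, *Cd74*, *H2-Ab1*, *H2-Eb1* and *H2-DMa*) lay above 0 in at least 1 fit that left out a tumor. The median ran from -0.21 to 0.13 in those fits.

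The promoter stretches that follow are shown because they hold the Y box core, in *H2-Eb1* with the X box core before it. They come from RefSeq on GRCm38.p6, run 5′ to 3′ along the gene's own strand and end before the gene begins. Capitals mark the Y box core GATTGG and, where present, the X box core AGNNACNGA. The *H2-Ob* stretch lies at chr17:34238802-34238862 on the plus strand, that of *H2-Aa* at chr17:34287857-34287917 on the minus strand and that of *H2-Eb1* at chr17:34305762-34305822 on the plus strand.
H2-Eb1: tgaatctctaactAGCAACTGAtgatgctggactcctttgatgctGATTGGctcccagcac
H2-Aa: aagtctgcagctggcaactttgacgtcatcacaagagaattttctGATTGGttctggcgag
H2-Ob: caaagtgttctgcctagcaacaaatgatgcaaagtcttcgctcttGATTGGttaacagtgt

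A promoter window of 250 bases before to 50 bases after the RefSeq start was found for 7 of the 10 members and searched on both strands. These were 8 windows, 2 of them of *H2-DMa*. The Y core occurred in at least 1 window of each of the 7 members, with the first *H2-DMa* window lacking it, and in 16.1% of 32851 mouse promoter windows counted singly. The X core occurred in 4 of 7 members (*H2-Oa*, *H2-Ob*, *H2-DMb1* and *H2-Eb1*) and in 17.7% of all windows, and both occurred in 2.81%. *H2-Eb1* and *H2-DMb1* had the X core upstream of the Y core on the gene's strand with starts 32 and 33 bases apart, and that of *H2-DMb1* is not printed because it reaches into the deposited gene model. Such a pair, 20 to 40 bases apart, was found in 33 windows, or 0.100% of all. The RefSeq starts behind the *H2-DMa* and *H2-DMb2* windows lay 1942 bases or more from the start of the deposited gene model. A match to these letters describes the sequence and does not show that a factor binds there, and a missing match does not show that no X box is there. The stretches of *H2-Aa* and *H2-Ob* hold no exact X core (that of *H2-Ob* lies elsewhere in its window). Near its place in *H2-Eb1*, the *H2-Ob* stretch reads agcaacaaa, which misses the X core only at the last G.

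*Ciita*, the coactivator that sets class II transcription, lies at chr16:10488178-10527564 (GRCm38, plus strand). Its counts per 1e6 counts, scaled by TMM (CPM), were 32.1, 91.4, 51.2 and 86.6 in *K-Ctrl* tumors 1 to 4. They were 73.6, 35.3, 38.4 and 92.9 in *K-Setd2KO* tumors 1 to 4. Each group thus held tumors with high and with low *Ciita*, spanning 2.89-fold over the 8 tumors. The log2 fold change was -0.12 with a 95% interval of -1.04 to 0.79 (edgeR adjusted p = 0.867), which runs from 0.486 to 1.73 times the control level. *Dexi* overlaps *Ciita* on the opposite strand, and the library kit kept strand, but the strand setting of the counting is not given in the sources used here.

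*Cd74* encodes the invariant chain, which fills the class II groove until a peptide is loaded. It gave between 51.7 and 57.7% of all class II counts in each tumor. The *K-Ctrl* tumors had 1590, 2853, 2093 and 2711 CPM, and the *K-Setd2KO* tumors had 2648, 2623, 1735 and 2230 CPM. The group means were nearly equal, at 2312 ± 583 and 2309 ± 428 CPM (mean ± SD, n = 4 each). The log2 fold change was -0.00 with an interval of -0.50 to 0.50, or 0.705 to 1.41 times the control level (edgeR adjusted p = 0.997). A microRNA gene, *Mir5107*, overlaps it on the same strand.

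The other 8 genes are protein-coding neighbours at chr17:34092340-34316199 (GRCm38). The classical chains form the peptide-binding dimers, with *H2-Aa* and *H2-Ab1* encoding the α and β chains of I-A and *H2-Eb1* the β chain of I-E. *H2-Ab1* measured 348, 787, 489 and 634 CPM in *K-Ctrl* tumors and 653, 610, 388 and 569 CPM in *K-Setd2KO* tumors. *H2-Aa* measured 397, 886, 583 and 647 CPM against 743, 709, 582 and 563 CPM. In both genes the lowest and the highest tumor were *K-Ctrl* tumors 1 and 2, and the *K-Setd2KO* values lay between them. The same held for *H2-Eb1*, at 267, 625, 380 and 487 CPM against 550, 429, 332 and 391 CPM. Fold changes were 0.05 for *H2-Aa* (interval -0.47 to 0.57), -0.02 for *H2-Ab1* (-0.61 to 0.56) and -0.05 for *H2-Eb1* (-0.63 to 0.54), with edgeR adjusted p values of 0.911, 0.961 and 0.925. The I-E α partner is a pseudogene in this table (*H2-Ea-ps*), and it had 0 counts in all 8 tumors, so *H2-Eb1* RNA was found without RNA of its partner. *H2-Eb2*, a further β chain gene of the locus, was low, with 3.39, 29.7, 10.3 and 15.4 CPM in *K-Ctrl* tumors, against 8.63, 6.73, 4.43 and 9.76 CPM in *K-Setd2KO* tumors. Its fold change was -0.99 (interval -2.26 to 0.28, edgeR adjusted p = 0.271), and -0.39 without *K-Ctrl* tumor 2.

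**Figure D1:**
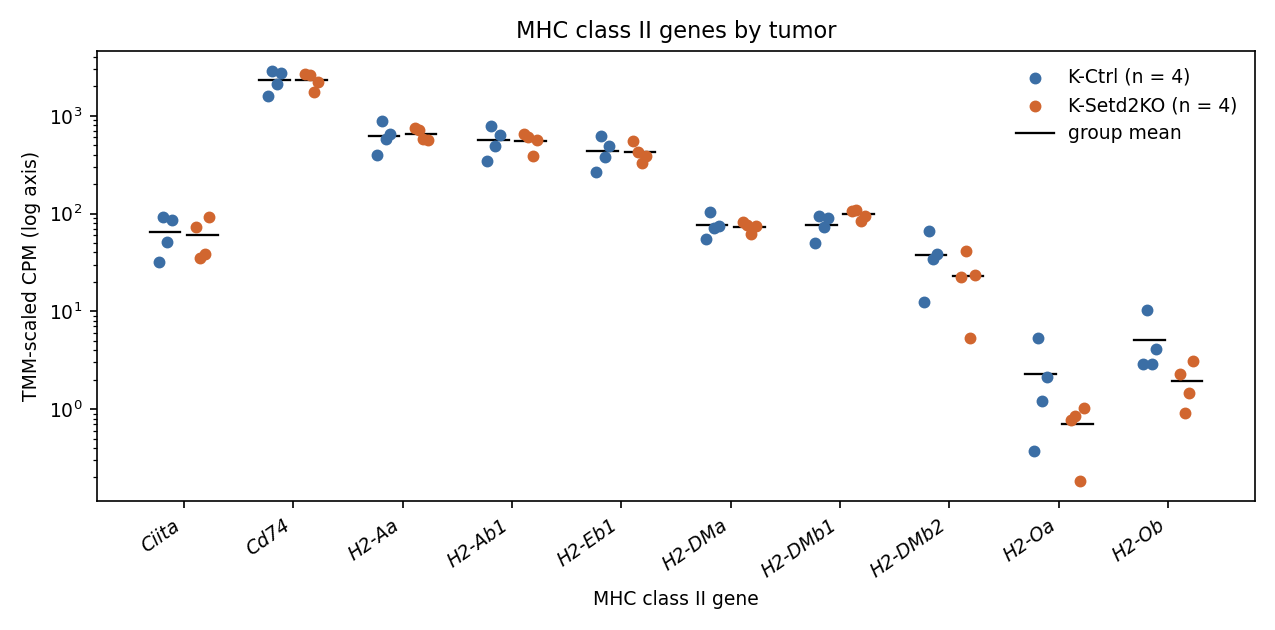
TMM-scaled CPM on a log axis for the 10 MHC class II genes, with 1 point per tumor (blue *K-Ctrl*, orange *K-Setd2KO*, n = 4 each) and bars at group means. *Cd74* and the classical chains overlap almost fully between genotypes, while *H2-Oa* reaches 5.38 CPM in *K-Ctrl* tumors, against 1.03 CPM in *K-Setd2KO* tumors.

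H2-DM catalyses the exchange of the invariant chain fragment for a peptide. Its α chain gene *H2-DMa* had 54.4, 104.7, 71.8 and 74.2 CPM in *K-Ctrl* tumors, against 82.0, 76.2, 61.8 and 74.6 CPM in *K-Setd2KO* tumors. The 4 *K-Setd2KO* values again fell inside the *K-Ctrl* range, and the fold change was -0.05 (interval -0.48 to 0.38, edgeR adjusted p = 0.888). The 2 β chain genes, *H2-DMb1* and *H2-DMb2*, are near-identical neighbours, and reads could have been shared or lost between them, so their separate values are uncertain. *H2-DMb1* had 50.04, 94.5, 72.7 and 89.4 CPM against 105.8, 107.7, 84.7 and 93.8 CPM. *K-Setd2KO* tumors 1 and 2 lay above every control and the other 2 within the control range, with a fold change of 0.36 (interval -0.08 to 0.79, edgeR adjusted p = 0.256). *H2-DMb2* had 12.4, 66.2, 34.3 and 38.2 CPM against 22.2, 41.2, 5.35 and 23.6 CPM. It was among the more scattered members, ranging 12.4-fold over the tumors, and its fold change of -0.70 had an interval of -2.07 to 0.66 (edgeR adjusted p = 0.470).

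H2-O binds H2-DM and holds it back, and is best known from B cells and some dendritic cells. *H2-Oa* shares its locus with *BC051537* on the opposite strand. Both of its genes had their largest value in *K-Ctrl* tumor 2. *H2-Oa* had 0.369, 5.38, 1.20 and 2.14 CPM in *K-Ctrl* tumors and 0.770, 0.841, 0.185 and 1.03 CPM in *K-Setd2KO* tumors. These rest on 6, 64, 26 and 24 counts in *K-Ctrl* and on 15, 11, 2 and 6 counts in *K-Setd2KO* tumors. *K-Ctrl* tumor 1 lay among the *K-Setd2KO* values and the other 3 control tumors above them. The fold change was -1.68 (interval -3.47 to 0.11, edgeR adjusted p = 0.193). *H2-Ob* had 2.89, 10.4, 2.86 and 4.11 CPM against 2.26, 0.918, 1.48 and 3.08 CPM, with only *K-Setd2KO* tumor 4 reaching into the control range. Its fold change was -1.41 (interval -2.63 to -0.19), which had an edgeR p of 0.0282 before adjustment and an edgeR adjusted p = 0.119. Without *K-Ctrl* tumor 2 these changes shrank to -0.81 for *H2-Oa* and -0.79 for *H2-Ob* (edgeR adjusted p = 0.530 and 0.332).

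The groups were not balanced for sex, which was read from *Xist* and Y-linked genes because the labels do not give it. *K-Ctrl* tumor 2 and *K-Setd2KO* tumors 1, 2 and 4 were female and the others male. With sex as a term in edgeR, *H2-Oa* fell by 2.64 on the log2 scale (edgeR adjusted p = 0.0424) and was the 1 member of 10 called lower, where that fit called 5.25% of all genes lower. *H2-Ob* had -1.79 and *H2-DMb2* -1.76 in that fit (edgeR adjusted p = 0.0543 and 0.0740). The only female control was *K-Ctrl* tumor 2, which held 64 *H2-Oa* counts, the most of any tumor. No fit with sex as a term was made without it, so the call rests on that tumor as the female control. Without sex as a term, leaving it out gave -0.81 for *H2-Oa*. Within sexes, *H2-Oa* differed by -2.10 between the 3 female *K-Setd2KO* tumors and the 1 female control, and by -1.20 between the 1 male *K-Setd2KO* tumor and the 3 male controls. *H2-Ob* differed by -2.18 and -0.92, and *H2-DMb2* by -1.23 and -2.15. With 1 tumor in an arm of each sex these values have no test. *Cd74*, *H2-Ab1*, *H2-Eb1*, *H2-DMa* and *Ciita* were also below 0 within both sexes, between -0.55 and -0.10, and *H2-DMb1* was above 0 in both. *H2-Aa* differed by -0.41 in females and 0.13 in males. With sex as a term the median of the 10 members was -0.34, against -0.05 without it.

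**Figure D2:**
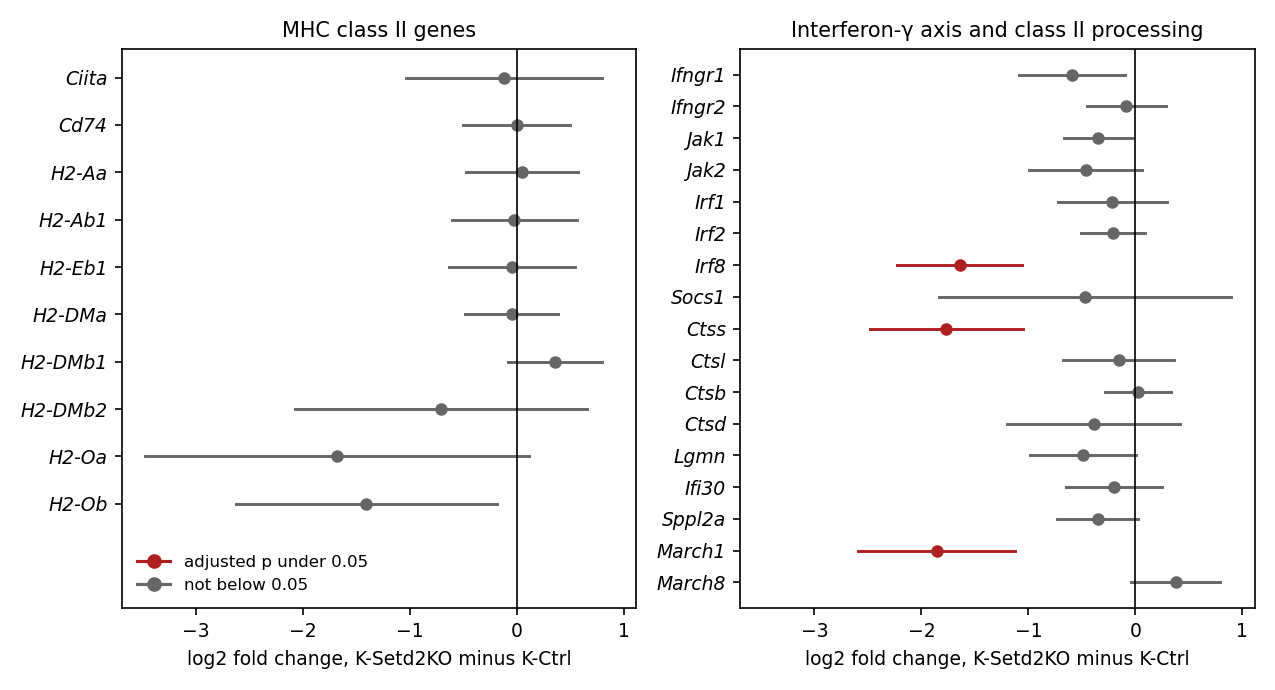
Log2 fold changes with 95% intervals (lines) from edgeR for the 10 class II genes (left) and for tested genes of the interferon-γ axis and of class II processing (right), red where the adjusted p was under 0.05. The class II genes hold no red point, and the right panel holds 3, *Irf8*, *Ctss* and *March1*.

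Levels were compared between members per kb of exon, as mean CPM per kb over the 8 tumors. *Cd74* stood first at 1639, followed by *H2-Eb1* at 365, *H2-Ab1* at 342 and *H2-Aa* at 341. The 3 classical chains could not be separated, since their ranges overlapped and *H2-Eb1* exceeded *H2-Ab1* in 6 of 8 tumors. *H2-DMb1* at 58.8 and *H2-DMa* at 45.7 came next, below the whole range of the classical chains, and overlapped each other. *H2-DMb2* had 17.8 and *Ciita* 11.9 CPM per kb, and their ranges overlapped too. *H2-Oa* and *H2-Ob* were last at 1.13 and 1.11 CPM per kb, below every *Ciita* value, with *H2-Oa* the higher in 4 of 8 tumors. The order thus had clear steps below *Cd74* and below the classical chains. *H2-DMa* exceeded *H2-DMb2*, whose separate value is uncertain, in 8 of 8 tumors. The highest *H2-Oa* and *H2-Ob* values, 4.09 and 3.31 CPM per kb, lay above the lowest *H2-DMb2* value, 3.13.

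Most members were lowest in 1 tumor and highest in another, both of them controls. *K-Ctrl* tumor 1 had the lowest value of all 8 tumors for 7 of 10 members, and *K-Ctrl* tumor 2 the highest for 8 of 10. Their summed level ran from 2754 to 5524 CPM in *K-Ctrl* and from 3230 to 4881 CPM in *K-Setd2KO* tumors. As a share of all counts the 10 genes took 0.276 to 0.572% and 0.328 to 0.471%. Ratios between members take out this common level, except where a gene lies near the 0.5 CPM added to both, as *H2-Oa* does. They were tested by exact permutation, two-sided, of the tumors between genotypes (70 assignments, smallest p 0.0286). The log2 ratio of *Cd74* to *H2-Ab1* was 2.06 ± 0.14 in controls and 2.06 ± 0.08 in *K-Setd2KO* tumors (SD, n = 4 each, exact permutation p = 0.943). None of the 7 ratios passed, before or after adjustment. The differences of *H2-Aa*, *H2-Eb1*, *H2-DMa* and *Ciita* to *H2-Ab1* were 0.08, -0.02, -0.03 and -0.13. The ratio of *H2-Ob* to *H2-DMa*, inhibitor to editor, was lower by 1.07 on the log2 scale in the *K-Setd2KO* tumors at -5.01 ± 0.56 against -3.93 ± 0.48 (exact permutation p = 0.0571, adjusted over 7 ratios 0.30). That of *H2-Oa* to *H2-DMa* was -6.00 ± 0.38 against -5.09 ± 0.78 (exact permutation p = 0.0857, adjusted 0.30), and its difference of -0.90 became -0.59 without *K-Ctrl* tumor 2.

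The genes whose pattern was most like that of *Ciita* after subtracting group means, over 8 tumors and 14519 genes with a mean of at least 1 CPM, were *Jpt2*, *Pmpca*, *Tnip3*, *Celf4* and *Nol9*, each with a Pearson r of 0.98. The other members ranked from 419 (*H2-Ob*, r = 0.83) to 2484 (*H2-DMb2*, r = 0.53), with *H2-Ab1* at 889 and *Cd74* at 1406. These correlations describe tumors that share a library type and differ in depth, and carry no test.

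The DNA-binding partners of CIITA had fold changes between -0.32 and 0.27. edgeR, DESeq2 and limma voom called none of the 7 (*Rfx5*, *Rfxank*, *Rfxap*, *Nfya*, *Nfyb*, *Nfyc* and *Creb1*) and their median was -0.11. 1 of them, *Creb1*, had an unadjusted edgeR p under 0.05 (fold change -0.32, adjusted p = 0.137), and it was called lower without *K-Setd2KO* tumor 4 (-0.43, edgeR adjusted p = 0.0475). The median was 0.0018 without *K-Ctrl* tumor 2.

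Interferon-γ induces *Ciita* through JAK kinases and IRF1. Of the 9 genes of this axis tested, 1 was lower and 0 higher, and all 9 fold changes were below 0 with a median of -0.46, against 0.03 over all genes. The median was -0.26 without *K-Setd2KO* tumor 3 and -0.29 without *K-Ctrl* tumor 2, and 2 of 9 were lower without *K-Setd2KO* tumor 1. The gene that fell with all tumors was *Irf8*, a transcription factor of myeloid cells. It had 23.5, 42.9, 32.6 and 27.5 CPM in *K-Ctrl* tumors, against 13.4, 11.0, 9.04 and 6.67 CPM in *K-Setd2KO* tumors, with no overlap and a fold change of -1.64 (interval -2.22 to -1.06, edgeR adjusted p = 0.00834). *Irf1* had a fold change of -0.22 and the receptor chain *Ifngr1* of -0.59 (edgeR adjusted p = 0.561 and 0.107). *Ifng* itself was between 0 and 2.10 CPM and was too low to be tested.

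Of 9 genes for class II processing and turnover, 2 were lower and 0 higher, with a median of -0.35, which was -0.21 without *K-Ctrl* tumor 3. *March8*, a ubiquitin ligase related to *March1*, had a fold change of 0.38 that did not pass with all tumors, and was called higher without *K-Setd2KO* tumor 2 (0.53, edgeR adjusted p = 0.0230). *Ctss*, the cathepsin that trims the invariant chain in professional antigen-presenting cells, had 588, 890, 910 and 511 CPM in *K-Ctrl* tumors, against 314, 215, 212 and 112 CPM in *K-Setd2KO* tumors. The groups did not overlap and *Ctss* fell by 1.76 on the log2 scale (interval -2.48 to -1.05, edgeR adjusted p = 0.0121). *March1*, the ubiquitin ligase that removes class II from the surface of dendritic and B cells, had 26.6, 48.3, 49.6 and 19.0 against 11.7, 7.27, 11.0 and 9.58 CPM. It fell by 1.86 (interval -2.59 to -1.13, edgeR adjusted p = 0.0110). These 3 calls, of *Irf8*, *Ctss* and *March1*, held in each of the 8 fits that left out 1 tumor and in all 9 other fits. All 3 genes are known from leukocytes, whose markers are given below, and the part of those cells in the 3 calls was not tested. *Ctsl*, *Ctsb*, *Ctsd*, *Lgmn*, *Ifi30*, *Sppl2a* and *March8* did not pass, with fold changes between -0.49 and 0.38.

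MHC class I genes present peptides made inside the cell and are found in nearly all cell types. edgeR, DESeq2 and limma voom called 0 of 14 of them in either direction, 2 had an unadjusted edgeR p under 0.05 (*Tapbp* and *Erap1*), and their median fold change was -0.28. With sex as a term 1 was lower (*Erap1*, median -0.72), as was 1 without *K-Setd2KO* tumor 1 (*Tapbp*, median -0.54), and the median ran from -0.54 to -0.11 (without *K-Ctrl* tumor 2) over the fits without 1 tumor. Of the other genes tested in the class II region, 1 of 5 passed, *Brd2*, a chromatin reader that is expressed broadly. The rest, *Psmb8*, *Psmb9*, *Tap1* and *Tap2*, are class I genes already counted among the 14. *Brd2* had 272, 249, 251 and 284 CPM in *K-Ctrl* tumors, against 333, 392, 327 and 358 CPM in *K-Setd2KO* tumors (fold change 0.42, edgeR adjusted p = 0.0425). The call was lost in each of the 8 fits that left out 1 tumor (highest edgeR adjusted p = 0.130) and in 5 of the 9 other fits, those with library size alone, no filter, at least 10 counts, the replicate block or sex as a term.

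Several kinds of leukocyte also express class II genes, and their markers were counted in the same fit. In bulk samples, fewer cells of a type and less RNA per cell cannot be told apart. Of 10 pan-leukocyte markers, 9 were lower in *K-Setd2KO* tumors and their median fold change was -1.78. Their summed level was 516 to 1041 CPM in *K-Ctrl* tumors, against 191 to 260 CPM in *K-Setd2KO* tumors, without overlap. Of 12 macrophage and monocyte markers 5 were lower (median -1.52), and their sum was 581 to 1634 against 206 to 395 CPM. Of 9 dendritic cell markers tested 4 were lower (median -1.77), at 148 to 306 against 48.9 to 85.3 CPM, and *Cd209a* had 0 counts in all 4 *K-Setd2KO* tumors. Of 8 B cell markers tested 1 was lower (median -1.996), at 35.6 to 114 against 20.7 to 37.1 CPM, and 3 were lower with sex as a term, by DESeq2, or without *K-Setd2KO* tumor 1. The B cell median ran from -2.70 without *K-Setd2KO* tumor 1 to -1.25 without *K-Ctrl* tumor 2. *K-Ctrl* tumor 2, which had the most *H2-Oa* and *H2-Ob*, also had the most *Ms4a1* (10.4 CPM), which encodes a B cell surface protein. The part of these markers in the class II values was not tested.

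T cells do not express class II genes in mice. Of 10 T cell markers 1 was lower, with a median of -1.61 and a sum of 60.6 to 163 against 10.5 to 49.8 CPM. With sex as a term 6 of 10 were lower (median -2.69), and without *K-Ctrl* tumor 2 the median was -0.68 with 1 of 10 lower. Endothelial markers had 2 of 8 lower and a median of -1.42, at 517 to 1919 against 199 to 497 CPM. This count changed with the fit, to 7 of 8 by DESeq2, to 0 with sex as a term or without a filter on low counts, and to between 0 and 4 without 1 tumor. It was 0 without *K-Ctrl* tumor 1 or 3 or *K-Setd2KO* tumor 2, 3 or 4. Neutrophil markers had 1 of 7 lower and a median of 0.51, at 24.8 to 36.7 against 15.1 to 63.8 CPM. The 1 call, *Mmp8*, was lost with the replicate block, with sex as a term and in 5 of 8 fits without 1 tumor. The median turned to -0.69 with sex as a term and ran from 0.096 (without *K-Setd2KO* tumor 1) to 0.57 over the fits without 1 tumor.

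Epithelial markers had another pattern. Of 10 alveolar type 2 markers, 1 was higher (*Sftpb*, 1.09) and 1 lower (*Napsa*, -1.60), with a median of -0.00 and a sum of 50937 to 75303 CPM in *K-Ctrl* tumors, against 61291 to 86055 CPM in *K-Setd2KO* tumors. *Sftpc*, the surfactant gene that defines type 2 cells, had a fold change of -0.00 (interval -0.45 to 0.44). Of 8 general epithelial markers 3 were higher, with a median of 0.39 and a sum of 2994 to 4164 against 3488 to 4633 CPM. These were the adhesion gene *Epcam* (fold change 0.90), the keratin *Krt18* and the transcription factor *Elf3* (1.35). In the 8 fits that left out 1 tumor, *Sftpb* and *Elf3* passed in all 8, *Epcam* in 7, *Napsa* in 3 and *Krt18* in 2. The count of epithelial markers called higher ran from 1 (without *K-Ctrl* tumor 3) to 4 (without *K-Ctrl* tumor 4), and their median was 0.62 without *K-Ctrl* tumor 4. Of these markers 1 was called lower by DESeq2, with library size alone and without *K-Setd2KO* tumor 2. *Epcam* was also lost with sex as a term, and *Napsa* with sex as a term, with the replicate block and without a filter.

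**Figure D3:**
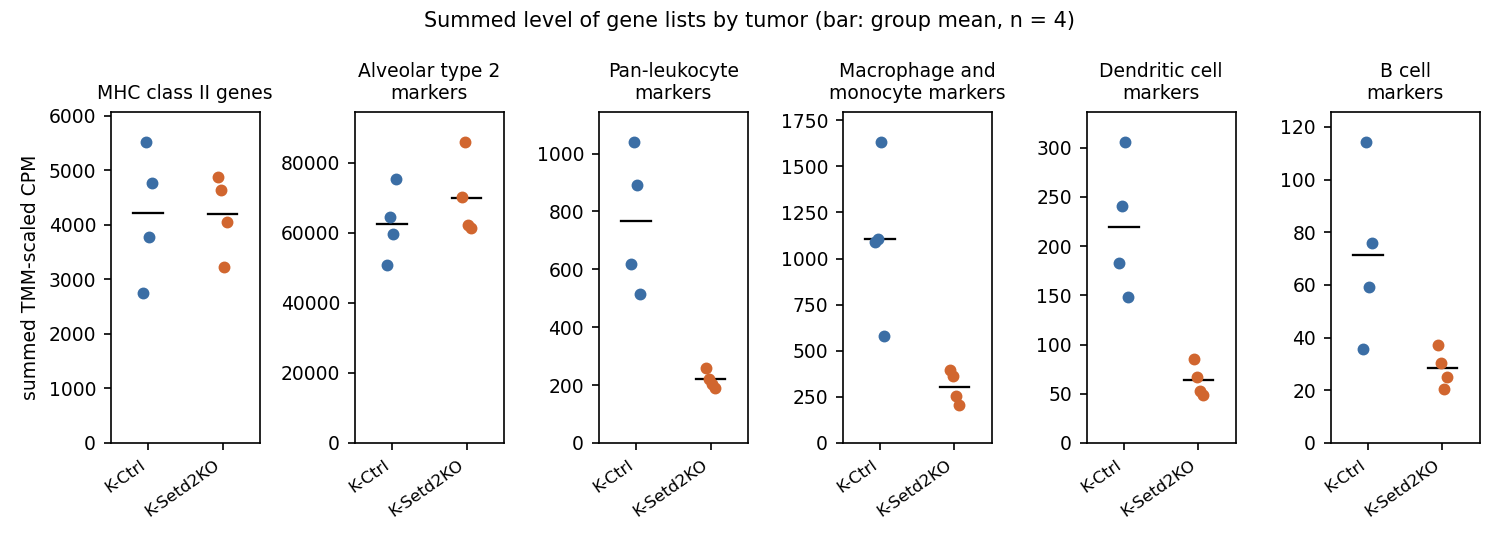
Summed TMM-scaled CPM of the 10 class II genes and of 5 marker lists, with 1 point per tumor, axes from 0 and bars at group means (n = 4 each). The class II and alveolar type 2 sums overlap between genotypes, the pan-leukocyte, macrophage and dendritic cell sums do not, and the lowest *K-Ctrl* B cell sum, 35.6 CPM, lies below the highest *K-Setd2KO* sum, 37.1 CPM.

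Set against single markers within each tumor, *H2-Ab1* had nearly the same ratio to *Sftpc* in both genotypes, and its ratios to *Ptprc*, *Csf1r* and *Flt3* were higher in all 4 *K-Setd2KO* tumors than in any control. These 9 ratios, to the first gene of each marker list, were chosen after the values were seen. *Ptprc*, *Csf1r* and *Flt3* had been called lower and *Epcam* higher in the same tumors, while *H2-Ab1* had a fold change of -0.02. Ratios to these 4 genes therefore largely repeat the marker changes and are no separate evidence on *H2-Ab1*. The log2 ratio to *Ptprc*, the gene of the leukocyte protein CD45, was 1.31 ± 0.56 in controls and 3.32 ± 0.41 in *K-Setd2KO* tumors (SD, n = 4 each, exact permutation p = 0.0286). The ratio to *Csf1r*, the receptor of macrophage growth factor, was 2.92 ± 0.64 against 4.52 ± 0.24, and that to *Flt3*, a dendritic cell receptor, was 6.78 ± 0.40 against 8.39 ± 0.27. The ratio to *Epcam* was lower, at 0.28 ± 0.37 against 1.18 ± 0.40. All 4 sets of values were without overlap and had the smallest p this design allows, which became 0.0643 when adjusted over the 9 ratios and so did not pass. The ratio to *Sftpc* was -5.51 ± 0.38 against -5.52 ± 0.52 (exact permutation p = 0.943). Those to *Cd3d*, *S100a8* and *Pecam1* overlapped between genotypes, with differences of 0.98, -0.55 and 1.34 (adjusted exact permutation p from 0.103 to 0.354). Without *K-Ctrl* tumor 4 the *S100a8* difference was -0.19, without *K-Ctrl* tumor 1 that of *Pecam1* was 0.78, and without *K-Ctrl* tumor 2 or *K-Setd2KO* tumor 2 that of *Cd3d* was 0.64.

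**Figure D4:**
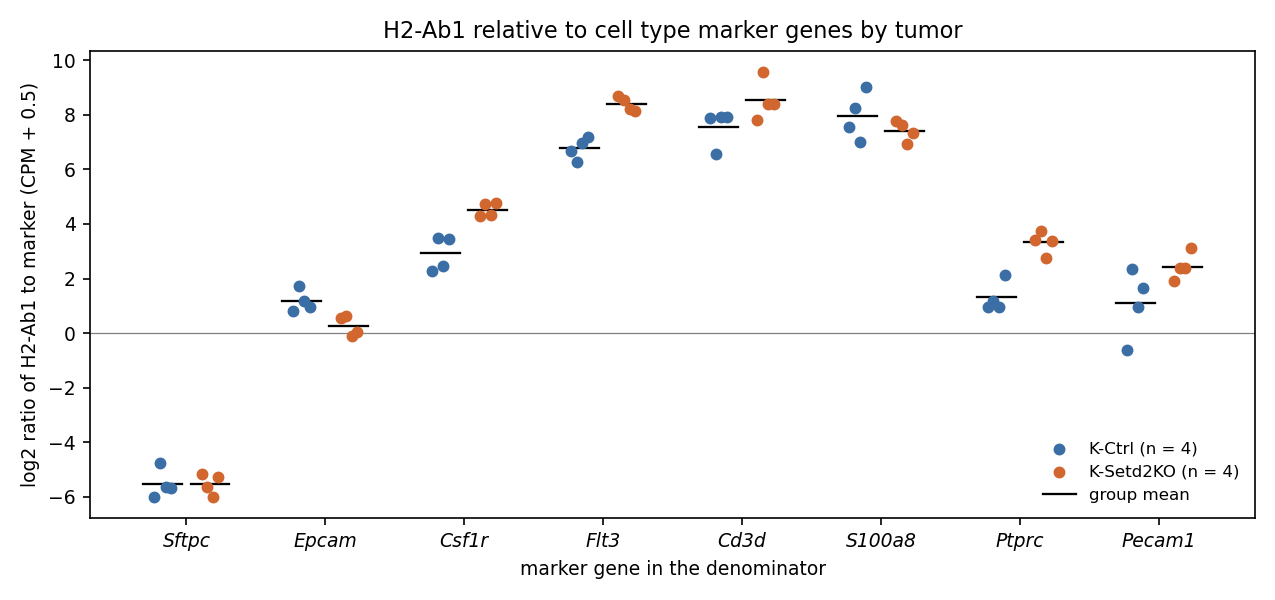
Log2 ratio of *H2-Ab1* to the first gene of 8 marker lists in each tumor (0.5 CPM added to both), with bars at group means (n = 4 each). The *K-Setd2KO* points lie above all *K-Ctrl* points for *Ptprc*, *Csf1r* and *Flt3*, below them for *Epcam*, and among them for *Sftpc*.

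Libraries held 5806599 to 21290402 counts, with the smallest being *K-Setd2KO* tumor 4, where 3 counts equal 0.517 CPM. *Setd2* RNA, which a frameshift in the gene need not lower, was at 132 to 153 CPM in *K-Ctrl* tumors, against 121 to 153 CPM in *K-Setd2KO* tumors (fold change -0.05, interval -0.31 to 0.21, edgeR adjusted p = 0.824), so it neither supports nor contradicts the labels. The extraction text of the labels speaks of cell lines, while titles and the study's text speak of tumors.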

How the data were processed

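RNA of 8 mouse lung tumors, 4 *K-Ctrl* and 4 *K-Setd2KO*, was sequenced from TruSeq Stranded mRNA libraries. The deposited values are whole-number counts per gene that the authors made from their reads. The submitters' processing notes name STAR 2.5.2b, featureCounts 1.5.0-p1 and GRCm38.p4. The strand setting and the annotation release are not given in the sources used here. Identifiers were matched without version to GENCODE M21 (99.3% found).

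From the counts, genes were kept by filterByExpr (14929 of 48709), scaled by TMM and tested with edgeR 4.0.16 in R 4.3.3 (quasi-likelihood, genotype as the 1 term, Benjamini-Hochberg, threshold 0.05). The study used DESeq2, run here as an alternative (1.42.0) beside limma voom (3.58.1). Intervals are 95% and come from the edgeR fit. CPM used TMM-scaled library sizes, and per-kb levels the deposited exon lengths. Ratios used log2 values after adding 0.5 CPM.

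Totals ran from 5806599 to 21290402 counts, a 3.67-fold range that makes the low genes the least precise. Replicates differed far beyond counting noise (lowest chi-square per degree of freedom 30.5), so none was a repeat deposit. Tested on simulated data for this comparison (14677 genes), the fit recovered 22.9% of changes of 1 and 75.3% of changes of 2 on the log2 scale, with 6.86% false among its calls.

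Genes named were the 10 members, genes that overlap them, genes of the companion and marker lists, *Setd2*, *Xist*, and the 5 genes most correlated with *Ciita*. The members and lists were chosen with earlier results of these data known. Other fits changed the scaling, the filter, the tool or the covariates (replicate number, sex), or left out each tumor. Some genes of these lists are counted but not reported here.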

Additional observations from a re-analysis of the deposited data

Results flagged for a closer look

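3 values, among 84 groups of 4 values examined, stood apart from the other 3 tumors of their group by the Dixon criterion, which chance meets in about 1 in 20 groups, and all 3 belong to *K-Ctrl* tumor 2. *H2-Ob* was at 10.4 CPM in that tumor, against 2.86 to 4.11 CPM in the other *K-Ctrl* tumors. The log2 ratio of *H2-Ab1* to the T cell gene *Cd3d* was 6.57 there, the lowest of the *K-Ctrl* tumors. The summed level of T cell markers was 163 CPM, the highest of all tumors. It is also the 1 female *K-Ctrl* tumor.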

How the results depend on the processing

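The members had 0 calls, lower or higher, in the 9 other fits, with 1 exception. With sex as a term, where *K-Ctrl* tumor 2 was the only female control, 1 was called lower, *H2-Oa* at -2.64. Leaving out each tumor in turn also gave 0 calls. Over all genes, 1897 were called, against 3194 by DESeq2, 1237 with sex as a term and 763 to 2058 without 1 tumor. Library size alone gave 1312 lower and 581 higher calls, against 1155 and 742. With a replicate block 1341 genes and 0 members were called. The replicate numbers share only a label, since deviations of same-numbered tumors correlated at -0.07, -0.03, 0.19 and -0.02.

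Changes near 0 turned sign: *Cd74* 0.011 without a filter, 0.0017 by limma voom and 0.012 with the replicate block, *H2-Ab1* 0.0072 with the block, and *H2-Aa* -0.0082 with library size alone and -0.15 with sex as a term. Without 1 tumor, log2 fold changes ran from -0.41 to 0.081 (*Ciita*), -0.15 to 0.12 (*Cd74*), -0.12 to 0.26 (*H2-Aa*), -0.20 to 0.18 (*H2-Ab1*), -0.23 to 0.17 (*H2-Eb1*), -0.18 to 0.14 (*H2-DMa*), 0.19 to 0.47 (*H2-DMb1*), -1.16 to -0.29 (*H2-DMb2*), -2.04 to -0.81 (*H2-Oa*) and -1.69 to -0.79 (*H2-Ob*). Differences between genotypes in the log2 ratio to *H2-Ab1* ran from -0.031 to 0.17 (*H2-Aa*) and -0.067 to 0.037 (*H2-Eb1*). They ran from -0.065 to 0.046 (*Cd74*), -0.36 to 0.13 (*Ciita*) and -0.11 to 0.031 (*H2-DMa*). The difference in the log2 ratio of *H2-Ab1* to *Sftpc* ran from -0.15 to 0.26. The cause was not tested. The genotype difference in the log2 ratio of *H2-Oa* to *H2-DMa* ran from -1.20 to -0.59 without 1 tumor. It was -0.52 with 2 CPM added and -1.33 with nothing added. For *H2-Ob* to *H2-DMa* the difference ran from -1.28 to -0.82, with -0.74 and -1.29. Both promoter cores stood in 4 members and in the spaced order in 2. At 10 counts or more in every tumor *H2-Oa* dropped out.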
